A study of Mus musculus with 8 samples.

Results

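The genes described here are 10 genes of the oligodendrocyte lineage that are used to mark oligodendrocyte precursors: Pdgfra, Cspg4, Vcan, C1ql1, Olig1, Olig2, Sox10, Gpr17, Enpp6 and Neu4. They were taken by exact gene symbol from a table of 25815 genes, and all 10 were found once each. Read counts came from poly(A)-selected RNA of whole brain of 5 mice carrying the Cstf2 D50A allele (D50A) and 3 wild-type littermates (WT), all at postnatal day 50. Both groups belonged to a colony backcrossed for 4 generations to C57BL/6NCrl and then bred within itself, received no treatment, and carried no other allele named in the labels. Each library came from 1 animal, so p-values measure the spread between these animals. The labels give neither sex nor litter, and do not say which cells express the mutant protein. Library numbers only name the animals, and D50A 3 is the mouse labelled D0169Mut. The design asks whether a single substitution in the RNA-binding domain of CSTF2, a subunit of the complex that stimulates 3' end cleavage of mRNA, changes brain transcript levels.

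Oligodendrocyte precursors are dividing glia that remain in the adult brain and give rise to myelinating oligodendrocytes. They are kept cycling by platelet-derived growth factor acting on the receptor encoded by Pdgfra, and they carry the NG2 proteoglycan encoded by Cspg4 and the matrix proteoglycan versican encoded by Vcan. C1ql1 encodes a secreted C1q-like protein made by precursors, and also by neurons of the inferior olive. Olig1, Olig2 and Sox10 encode transcription factors used throughout the lineage, mature oligodendrocytes included. Gpr17, Enpp6 and Neu4 mark cells that have begun to differentiate: Gpr17 encodes a receptor that holds back maturation, Enpp6 a choline phosphodiesterase of newly forming oligodendrocytes, and Neu4 a sialidase. Pdgfra is also made by meningeal fibroblasts and Cspg4 by pericytes, so these genes are not exclusive to precursors in whole tissue.

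CSTF2 binds RNA just downstream of the cleavage site, and the signal AATAAA lies just upstream of that site. The transcript ends below show that signal and stop at or before the annotated end, without the downstream sequence that CSTF2 binds. They were read in the sense strand from the longest protein-coding transcript in GENCODE M21 (mm10), with the last AATAAA within 50 bases of the annotated end in capitals.
Pdgfra, chr5:75198167-75198196, plus strand: tctttatatttcAATAAAtgatttattata
Cspg4, chr9:56899845-56899870, plus strand: aataaataaataAATAAAtgctccca
C1ql1, chr11:102939267-102939296, minus strand: gaccaaagctatAATAAAaacattttgacc
Olig1, chr16:91271901-91271930, plus strand: cagaaatcacaaAATAAAacgtcaacagtt
Olig2, chr16:91228649-91228677, plus strand: gttgagattttaAATAAAatttaaagcaa
Sox10, chr15:79154928-79154957, minus strand: caagtAATAAAatcaatgcttctggttgcc
Enpp6, chr8:47096725-47096754, plus strand: gaaaaaaaaaagAATAAAtgtcaacaggga
From 8 bases (Cspg4) to 39 bases (Sox10) followed the signal before the annotated end, and Cspg4 carried the motif in an overlapping run. Vcan and Neu4 held neither AATAAA nor ATTAAA in that window, and the end of Gpr17 was not analysed here. Among 16700 tested genes with an annotated transcript, 57.5% held AATAAA there and a further 13.6% held only ATTAAA. For those genes the longest transcript of any type was searched, protein-coding or not, so the shares are not strictly like the search above. A gene count sums over all 3' ends of a gene, so the counts below do not say which end was used.

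Libraries held 13675945 to 24802272 counts. D50A 3 stood apart: it was the shallowest library and mitochondrial transcripts made up 11.9% of it, against 4.08% to 5.14% of the other libraries. Its transcript levels also ran with transcript length, as described below. A second difference touches the whole comparison. Summed over 8 cerebellar genes, D50A 2, 3, 4 and 5 held 626, 713, 913 and 942 CPM (counts scaled to a common library size after TMM normalization), and D50A 1 held 88.1 CPM, against 89.7 to 94.6 CPM in WT. Genotype and cerebellar content therefore cannot be told apart in 4 of the 5 D50A libraries, and values of D50A 1 are given beside the results.

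All 10 genes were detected in all 8 libraries, the lowest count being 69 (Cspg4 in D50A 3), and all 10 passed the filter on low counts. Divided by the length of the longest transcript, Olig1 had the highest level, at 59.8 ± 6.07 CPM per kb in D50A (SD, n = 5) and 62 ± 5.99 CPM per kb in WT (SD, n = 3). Sox10 came next, at 18.1 ± 8.15 CPM per kb in D50A and 21.7 ± 2.6 CPM per kb in WT. In WT the order then ran through Olig2 (13.5 CPM per kb), Gpr17 (12.7), Pdgfra (10.6), C1ql1 (8.13), Neu4 (2.95), Enpp6 (2.71), Cspg4 (2.43) and Vcan (2.37). The WT ranges of Olig2 and Gpr17 overlapped, as did those of each neighbouring pair from Neu4 to Vcan. Pdgfra and C1ql1 did not overlap in WT, where they held 10.5 to 10.8 and 7.42 to 8.7 CPM per kb. In D50A without D50A 3 they did, at 8.02 to 9.17 for Pdgfra and 7.3 to 8.67 CPM per kb for C1ql1.

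**Figure D1:**
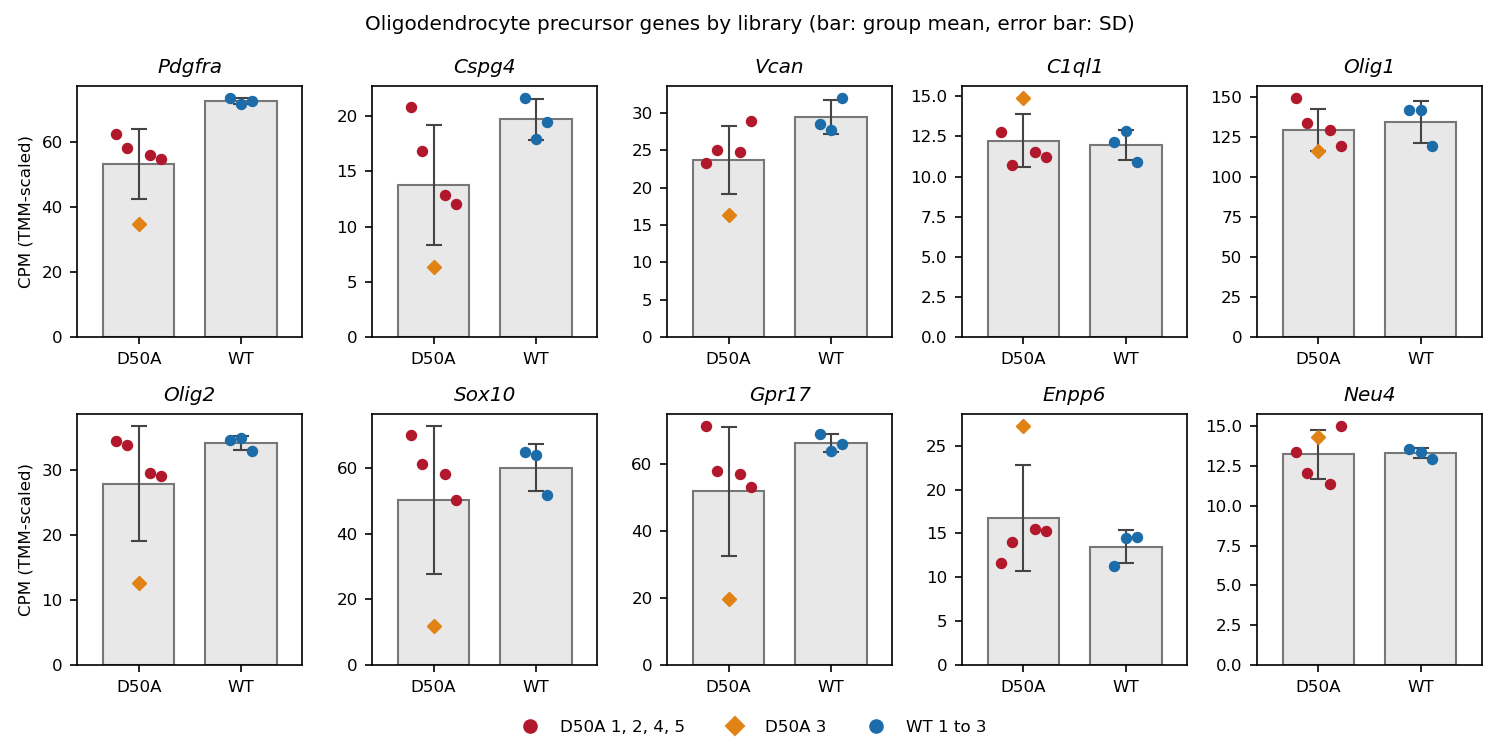
Level of each gene in CPM (vertical axes from 0, different scales) in the D50A libraries on the left and the WT libraries on the right of each panel; points are libraries, bars group means and error bars SD. For Pdgfra all 5 D50A points, 34.9 to 62.7 CPM, lie below the 3 WT points, and D50A 3 (diamond) is the lowest point for 7 genes and the highest for C1ql1 and Enpp6.

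None of the 10 genes passed edgeR's quasi-likelihood test over all 16810 tested genes (0 called higher, 0 lower). The background was 0% of tested genes called, with 420 at an unadjusted p under 0.05. Among the 10, Pdgfra was the only gene at an unadjusted p under 0.05. DESeq2 called 0 of the 10 and 0.185% of the 20000 genes it gave an adjusted p. limma-voom (with quality weights per sample) called 1 of the 10, Pdgfra, as lower. Over all tested genes limma-voom called 3.08%, 1.87% higher and 1.2% lower. The median log2 fold change of the 10 was -0.27, with 8 negative, against -0.01 over all tested genes. Without D50A 3 the median was -0.07, again with 8 negative. edgeR again called 0 of the 10 and 0% of 16754 genes, with 1574 genes at an unadjusted p under 0.05, of which 1 was a member. DESeq2 and limma-voom each called Pdgfra lower in that comparison. There DESeq2 called 0.825% of the 18187 genes it gave an adjusted p (0.621% higher, 0.203% lower). limma-voom called 3.04% of tested genes (1.84% higher, 1.19% lower). In bulk tissue, fewer cells of a type and less RNA per cell cannot be told apart.

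Pdgfra (ENSMUSG00000029231, chr5:75152292-75198215 on the plus strand), the growth factor receptor, was the gene of the 10 whose groups separated. It held 62.7, 58.2, 34.9, 56 and 54.8 CPM in D50A 1 to 5, against 73.7, 71.7 and 72.6 CPM in WT 1 to 3. Every D50A library lay below every WT library, with D50A 3 lowest. Means were 53.3 ± 10.7 CPM in D50A (SD, n = 5), or 57.9 ± 3.47 CPM without D50A 3 (SD, n = 4), and 72.6 ± 0.987 CPM in WT (SD, n = 3). Such separation was seen for 1 of the 10 genes in the lower direction and 0 in the higher, where 4.24% of all tested genes were lower and 3.22% higher in this way, 7.45% in all. Without D50A 3 the count was again 1 lower and 0 higher, beside 5.8% of genes lower and 4.79% higher (10.6% in all). The log2 fold change was -0.45 ± 0.19 in edgeR (SE; edgeR adjusted p = 0.84) and -0.43 ± 0.21 in DESeq2 (SE; DESeq2 adjusted p = 0.905). In limma-voom, which weights each library by quality, it was -0.36 ± 0.06 (SE; limma-voom adjusted p = 0.00535). That weighted value was close to edgeR's without D50A 1 and D50A 3, -0.35 ± 0.06 (SE). Without D50A 3 the edgeR value was -0.32 ± 0.06 (SE; edgeR adjusted p = 0.19), a level 19.7% lower. DESeq2 then gave -0.32 ± 0.08 (SE; DESeq2 adjusted p = 0.015) and limma-voom -0.34 ± 0.05 (SE; limma-voom adjusted p = 0.00509). D50A 1, whose cerebellar level was like that of WT, stood at 86.3% of the WT mean, and D50A 2, 4 and 5 at 75.4% to 80.1%. D50A 1 is a single animal, and the part of cerebellar content in the Pdgfra difference was not tested. Genes whose D50A libraries all lay below WT had a median longest transcript of 5170 bases, against 3220 bases for all tested genes, and that of Pdgfra is 6834 bases. The part of transcript length in the Pdgfra difference was not tested.

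The share of Pdgfra within the summed CPM of the 10 genes does not depend on library scaling. It was 12.7% to 14.1% in the 5 D50A libraries, D50A 3 included, and 15.5% to 16.8% in the 3 WT libraries. The groups did not overlap for this share, which was chosen after the values had been seen and carries no test. The share of Olig1 did not overlap either, in the other direction, at 30.7% to 42.3% in D50A and 27.5% to 30.6% in WT. Shares of the 10 genes depend on each other, so separation of a share was not particular to Pdgfra. The ratio of Pdgfra to its sister receptor gene Pdgfrb, a pericyte marker, was 2.22 to 2.7 in D50A without D50A 3 and 8.77 in D50A 3, against 2.52 to 3.09 in WT, so that ratio overlapped between the groups.

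Cspg4 and Vcan, the proteoglycan genes, were lower on average without separating. Cspg4 held 20.8, 16.8, 6.38, 12.9 and 12 CPM in D50A 1 to 5, against 21.6, 18 and 19.5 CPM in WT. D50A 1 fell inside the WT range, and the 4 D50A libraries with high cerebellar transcripts lay below all WT libraries. The log2 fold change was -0.51 ± 0.32 (SE; edgeR adjusted p = 0.84), and -0.32 ± 0.17 (SE) without D50A 3 (adjusted p = 0.61). Vcan held 23.3, 25.1, 16.4, 24.8 and 28.9 CPM in D50A, against 28.6, 27.7 and 32 CPM in WT. Here D50A 5 overlapped WT and D50A 1 was low, at 79.2% of the WT mean. Its log2 fold change without D50A 3 was -0.19 ± 0.09 (SE; edgeR adjusted p = 0.54). Vcan has the longest transcript of the 10 genes, 12427 bases. An antisense gene overlapping Vcan had 6 to 21 counts per library and another 0 to 1. Whether counting used the strand is not stated in the labels or headers.

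C1ql1 levels overlapped fully, at 12.8, 10.7, 14.9, 11.5 and 11.2 CPM in D50A 1 to 5 and 12.2, 12.8 and 10.9 CPM in WT. The log2 fold change was 0.03 ± 0.15 (SE; edgeR adjusted p = 0.94), and -0.04 ± 0.1 (SE) without D50A 3. A gene on the opposite strand that overlaps C1ql1 held 7 to 25 counts per library, against 161 to 328 counts of C1ql1. Of the related genes, C1ql2 was at 10.5 ± 0.859 CPM in D50A (SD, n = 5) and 13.3 ± 0.36 CPM in WT (SD, n = 3), and did not pass (edgeR adjusted p = 0.84). C1ql3, named after its values were seen, held 49.1 to 74.5 CPM across D50A, against 78.4 to 88.7 CPM across WT, and was not called either. For C1ql2 and C1ql3 every D50A library lay below every WT library, as for 4.24% of all tested genes. C1ql4 was at 0.982 ± 0.476 CPM in D50A and 0.442 ± 0.0813 CPM in WT, also without passing (edgeR adjusted p = 0.84). That is only 4 to 40 counts in D50A libraries and 8 to 9 in WT libraries.

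The lineage transcription factors showed no separation between genotypes. Olig1 held 149, 134, 116, 129 and 119 CPM in D50A 1 to 5, against 142, 141 and 119 CPM in WT. These ranges overlapped almost entirely, and the log2 fold change was -0.05 ± 0.15 (SE; edgeR adjusted p = 0.89). Without D50A 3 it was 0 to 2 decimals, with an SE of 0.09. Olig2, which lies beside Olig1 on chromosome 16, held 34.4, 33.9, 12.6, 29.5 and 29 CPM in D50A, against 34.6, 34.9 and 32.8 CPM in WT. D50A 1 and D50A 2 were inside the WT range and the other D50A libraries below it. The log2 fold change of Olig2 was -0.29 ± 0.29 (SE), and -0.1 ± 0.08 (SE) without D50A 3 (edgeR adjusted p = 0.84 and 0.76). Sox10 held 70.2, 61.5, 11.9, 58.2 and 50.2 CPM in D50A, against 64.9, 64 and 52 CPM in WT. Without D50A 3 its group means were 60 ± 8.25 CPM in D50A (SD, n = 4) and 60.3 ± 7.21 CPM in WT (SD, n = 3), a log2 fold change of 0 to 2 decimals with an SE of 0.11.

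None of the 3 genes of differentiating cells passed the test, and their fold changes had no common sign. Gpr17 held 71.4, 58, 19.8, 56.8 and 53.1 CPM in D50A 1 to 5, against 68.9, 63.7 and 65.9 CPM in WT. D50A 1 was above all WT libraries and the other 4 D50A libraries below them. Its log2 fold change was -0.35 ± 0.34 (SE), and -0.13 ± 0.09 (SE) without D50A 3 (edgeR adjusted p = 0.84 and 0.71). Lims2, on the opposite strand to Gpr17 and overlapping it, had 122 to 294 counts per library, against 214 to 1833 counts of Gpr17. Enpp6 held 11.7, 14, 27.3, 15.5 and 15.3 CPM in D50A, against 11.3, 14.5 and 14.6 CPM in WT. The log2 fold change of Enpp6 was 0.31 ± 0.28 (SE), and 0.08 ± 0.13 (SE) without D50A 3 (edgeR adjusted p = 0.84 and 0.9). Neu4 held 13.4, 12.1, 14.3, 11.3 and 15 CPM in D50A, against 13.6, 13.4 and 12.9 CPM in WT. Its D50A libraries spread on both sides of WT, and the log2 fold change was -0.01 ± 0.14 (SE; edgeR adjusted p = 0.98). The ratio of Gpr17 to Pdgfra was 0.97 to 1.14 in D50A without D50A 3 and 0.568 in D50A 3, against 0.889 to 0.936 in WT.

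**Figure D2:**
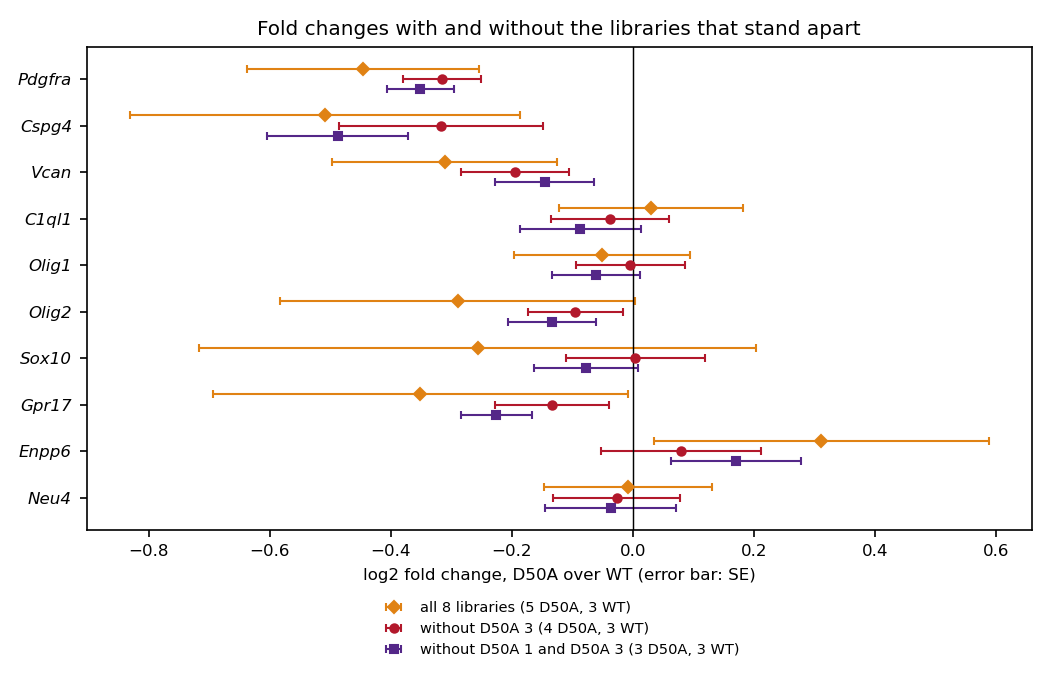
Log2 fold change of D50A over WT (horizontal axis, error bars SE) for each gene in 3 fits: all 8 libraries, without D50A 3, and without D50A 1 and D50A 3. Pdgfra is lower in all 3 fits, at -0.45, -0.32 and -0.35, and the error bars of Sox10 and Gpr17 shrink most once D50A 3 is left out.

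Without D50A 1 and D50A 3, the 3 remaining D50A libraries and the 3 WT libraries differed in genotype and in cerebellar content at once. In that comparison edgeR called 3 of the 10 genes lower and 0 higher, where it called 6.42% of 16591 genes, 3.06% lower and 3.36% higher. Pdgfra had a log2 fold change of -0.35 ± 0.06 (SE; edgeR adjusted p = 0.00104). Cspg4 had -0.49 ± 0.12 (SE; adjusted p = 0.02, edgeR), and Gpr17 had -0.23 ± 0.06 (SE; adjusted p = 0.032, edgeR). The left-out D50A 1 held Cspg4 at 106% and Gpr17 at 108% of the WT mean. For these 2 genes the lower level was seen where cerebellar transcripts were high and not in the 1 D50A library where they were low. The part of cerebellar content in these differences was not tested.

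**Figure D3:**
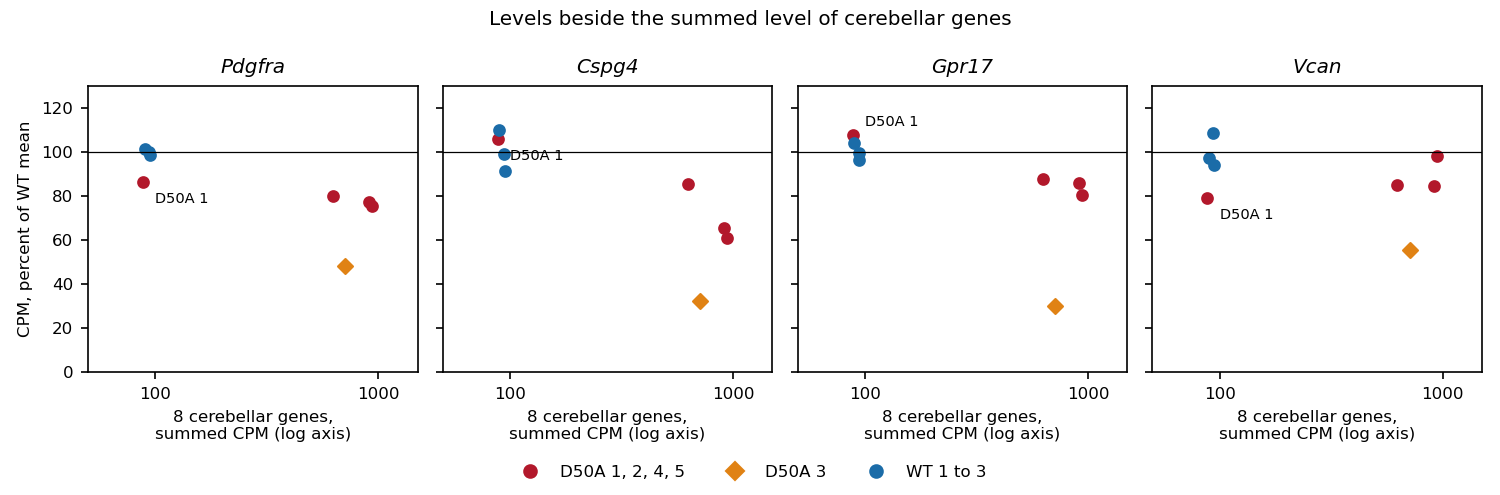
Level of Pdgfra, Cspg4, Gpr17 and Vcan as percent of the WT mean (vertical axis) against the summed CPM of 8 cerebellar genes (horizontal log axis), 1 point per library, D50A in red and orange and WT in blue. D50A 1 sits with WT on the horizontal axis, where it is at 86.3% for Pdgfra, 79.2% for Vcan, 106% for Cspg4 and 108% for Gpr17.

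D50A 3 departed from its group by amounts that differed from gene to gene. Relative to the mean of the other D50A libraries, on the log2 CPM scale, Sox10 was at -2.31, Gpr17 at -1.58, Olig2 at -1.32 and Cspg4 at -1.24. Pdgfra was at -0.73, Vcan at -0.63 and Olig1 at -0.19, while Neu4 was at 0.15, C1ql1 at 0.36 and Enpp6 at 0.95. For genes whose mean log2 CPM exceeded 2, the median of this difference was 1.12 for transcripts under 2000 bases, 0.11 from 2000 to 4000 bases, -0.65 from 4000 to 8000 bases and -1.43 above that. Length class did not order the 10 genes in the same way. Sox10 (2780 bases) and Olig2 (2530 bases) lay below the lower quartile of their class, -0.67. Enpp6 (4970 bases) and Neu4 (4511 bases) lay above the upper quartile of theirs, 0.12, and Gpr17 and C1ql1 lay just below their lower quartiles. The part of transcript GC content in these departures was not tested. GC content was 65.8% for C1ql1, 61.8% for Sox10, 61.1% for Olig1, 59.2% for Cspg4, 58.5% for Olig2 and 53.4% for Gpr17. It was 49.7% for Neu4, 48.1% for Pdgfra, 43.7% for Vcan and 42.3% for Enpp6. Olig1, in the same length class as Sox10 and Olig2, lay inside the band of that class. The ratio of Olig1 to Olig2 reached 9.22 in D50A 3, with 3.94 to 4.38 among the other D50A libraries, against 3.63 to 4.09 in WT.

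**Figure D4:**
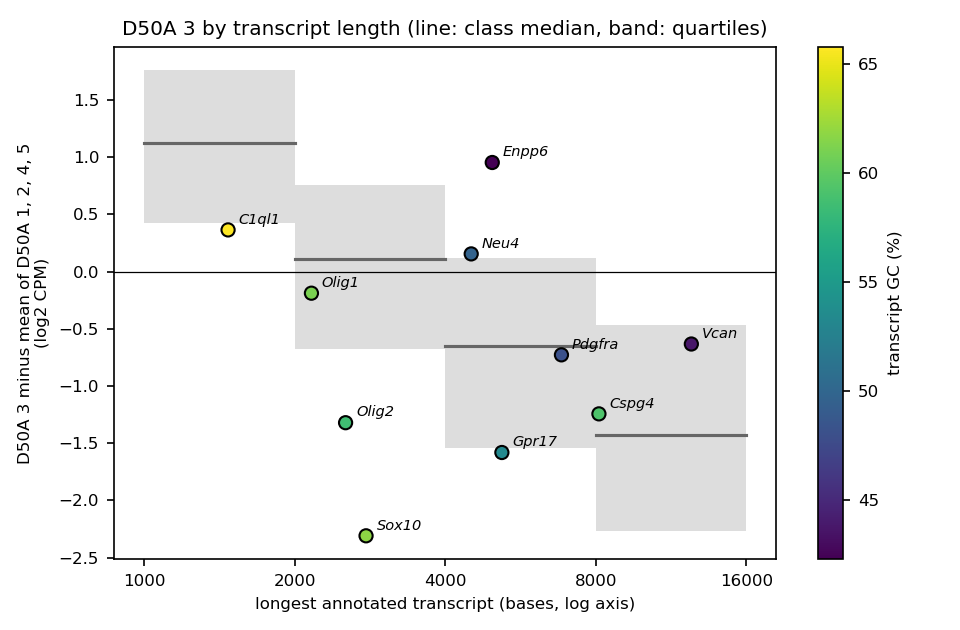
Level of each gene in D50A 3 minus its mean in the other D50A libraries (vertical axis, log2 CPM) against the length of its longest transcript (horizontal log axis), coloured by transcript GC content; lines and bands give the median and quartiles of all genes in 4 length classes, the first and last of which are open-ended. Sox10 and Olig2 lie below the band of their class and Enpp6 above its band.

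Outside D50A 3, Olig1 and Sox10 had the most alike profiles of the 10 genes. Likeness was measured as the root-mean-square difference between log2 CPM profiles, each centred on its own mean. Over the 7 other libraries the closest pair of the 10 was Olig1 and Sox10, at 0.05, and the farthest Cspg4 and Enpp6, at 0.45. With D50A 3 included, Olig1 and Sox10 were 0.7 apart, and Gpr17 and Olig2 became the closest pair, at 0.12. Among 12482 genes searched, the profiles nearest to Pdgfra over 8 libraries were those of Gpr83 (0.04) and Hpcal4 (0.05), and over 7 libraries those of Pde8b and Hnrnpa1 (0.03 each). Those nearest to Olig2 were Atmin (0.02) and Arhgap44 (0.03) over 8 libraries, with Atmin again nearest over 7. Over 7 libraries Trmt1 (0.02) was nearest to Olig1 and Hps4 (0.03) to Sox10. Both were nearer than Olig1 and Sox10 were to each other (0.05).

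Other genes of the precursor state were taken from lists drawn up with earlier results of these data known, and edgeR called none of them with all 8 libraries or without D50A 3. Of 19 further precursor-rich genes tested, the median log2 fold change was -0.19 with all 8 libraries and -0.09 without D50A 3. In 7 of the 19 every D50A library lay below every WT library, and in 0 above; among all tested genes 4.24% were lower in this way. These 7, picked out after their values were seen, were Ptprz1, Tnr, Xylt1, Pcdh15, Sema5a, Epn2 and Ppfibp1. Ptprz1, a receptor phosphatase gene, was at 174 ± 45 CPM in D50A (SD, n = 5) and 224 ± 15 CPM in WT (SD, n = 3). Tnr, the gene of the matrix protein tenascin-R, held 8.6 CPM in D50A 3, with 60.9 to 72 CPM in the other D50A libraries, against 80.3 to 85.6 CPM in WT. Sema5a, a semaphorin gene, held 18.8 CPM in D50A 3, with 59.3 to 66.8 CPM in the other D50A libraries, against 73.2 to 78.6 CPM in WT. D50A 1 held the 7 genes at 67.6% to 95.5% of the WT mean. Their log2 fold changes without D50A 3 ran from -0.3 to -0.04, with edgeR adjusted p from 0.25 to 0.86. Their longest transcripts had a median of 9020 bases, against 3172 bases for the other 12 genes of the list, so transcript length moved with this difference and its part was not tested. Precursors share several of the 7 with neurons or astrocytes. Megf11 had a positive log2 fold change without passing with all 8 libraries or without D50A 3. It was at 45.9 ± 9.23 CPM in D50A (SD, n = 5) and 36.6 ± 4.01 CPM in WT (SD, n = 3), with D50A 1 at 35.2 CPM. Without D50A 1 and D50A 3 it passed, at 0.54 ± 0.07 (SE; edgeR adjusted p = 0.00023).

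The ligands and receptors of the platelet-derived growth factor family did not pass either (0 of 6 called by edgeR, with or without D50A 3). Pdgfc, a ligand gene, held 5.65, 6.08, 6.75, 6.62 and 5.09 CPM in D50A 1 to 5, against 7.31, 7.29 and 7.07 CPM in WT. All its D50A libraries lay below WT, with a log2 fold change of -0.26 ± 0.15 (SE; edgeR adjusted p = 0.84). Pdgfd, another ligand gene, separated in the other direction, at 5.26, 5.98, 12.1, 5.56 and 8.26 CPM in D50A and 4.96, 5.21 and 4.81 CPM in WT (log2 fold change 0.56, SE 0.3, edgeR adjusted p = 0.84). Among 22 tested lineage transcription factors, with Olig1, Olig2 and Sox10 among them, the median log2 fold change was -0.17, and -0.04 without D50A 3. Sox6, which keeps precursors undifferentiated, held 24.5, 23.3, 11.9, 23.9 and 25 CPM in D50A, against 27.7, 28.7 and 30.4 CPM in WT. Its D50A and WT libraries did not overlap, and without D50A 3 its log2 fold change was -0.25 ± 0.07 (SE; edgeR adjusted p = 0.25). Nkx6-2 was at 22.5 ± 7.1 CPM in D50A and 17 ± 1.41 CPM in WT.

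Genes of newly formed oligodendrocytes were mixed, with a median log2 fold change of -0.1 over 14 tested genes, 3 of which belong to the 10, and -0.01 without D50A 3. Itpr2, a calcium release channel gene, held 26.7, 27, 15.2, 24.6 and 26.4 CPM in D50A, against 33.6, 31.2 and 30.8 CPM in WT, with no overlap. Without D50A 3 its log2 fold change was -0.27 ± 0.07 (SE; edgeR adjusted p = 0.23). Cnksr3 held 10.8 CPM in D50A 1, with 14.5 to 19.1 CPM in D50A 2 to 5, against 10.3 to 12.1 CPM in WT, with D50A 1 inside the WT range and the other D50A libraries, all with high cerebellar transcripts, above it (edgeR adjusted p = 0.84). The 14 myelin genes summed to 11651 CPM in D50A 1, 22372 CPM in D50A 3, with 10982 to 12129 CPM for D50A 2, 4 and 5, against 10064 to 10883 CPM in WT. Their median log2 fold change was 0.36, and 0.12 without D50A 3, of the opposite sign to the median of the 10 precursor genes. Mobp and Ermn had log2 fold changes of 0.66 and 0.74, and of 0.26 and 0.25 without D50A 3, and neither passed in those comparisons. Without D50A 1 and D50A 3 both passed, at 0.29 ± 0.06 for Mobp and 0.36 ± 0.06 for Ermn (SE; edgeR adjusted p = 0.012 and 0.0013). D50A 1 held Mobp at 114% of the WT mean, above all WT libraries. It held Ermn at 60.7 CPM, below the WT range of 65.6 to 68.8 CPM.

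The 13 genes of lecticans and their matrix partners, Vcan and Cspg4 among them, had a median log2 fold change of -0.31, and -0.19 without D50A 3. Ncan, the neurocan gene, held 231, 178, 34, 154 and 152 CPM in D50A 1 to 5, against 230, 214 and 253 CPM in WT; D50A 1 was inside the WT range. Cell division genes (16 tested), which precursors share with other dividing cells, had a median of -0.16, and -0.23 without D50A 3. Of the 16 log2 fold changes, 12 were negative, and 11 without D50A 3. The 16 genes summed to 187 CPM in D50A 3, with 73.7 to 80.3 CPM in the other D50A libraries, against 78.4 to 83.5 CPM in WT. Bub1b, a mitotic checkpoint kinase gene, held 1.91, 1.47, 0.925, 1.48 and 1.33 CPM in D50A, against 3.08, 4.56 and 3.15 CPM in WT. That is 10 to 49 counts in D50A libraries and 53 to 90 in WT libraries, without overlap (log2 fold change -1.31, SE 0.25, edgeR adjusted p = 0.84). Mki67, the proliferation marker, named after its values were seen, held 1.02 to 4.25 CPM across D50A and 4.3 to 5.76 CPM across WT. Without D50A 3 its edgeR adjusted p was 0.39. Bub1b and Mki67 were the 2 of the 16 whose groups separated, beside 4.24% of all tested genes lower in this way. Aurka, an aurora kinase gene, was at 1.49 ± 0.355 CPM in D50A and 2.16 ± 0.298 CPM in WT (edgeR adjusted p = 0.84). Its counts were 19 to 51 in D50A libraries and 31 to 48 in WT libraries. Pcna, named after its values were seen, had a positive log2 fold change of 0.71, and 0.12 without D50A 3. The other sialidase genes, Neu1 to Neu3, did not pass, with Neu2 at 3.34 ± 0.326 CPM in D50A and 3.82 ± 0.459 CPM in WT.

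Cells that share Pdgfra or Cspg4 with precursors were compared by summed marker levels. The 8 pericyte markers summed to 187 to 257 CPM across D50A and 198 to 211 CPM across WT. D50A 1 and D50A 3 lay above that WT range, at 221 and 257 CPM. D50A 2, 4 and 5 lay below it, at 187 to 191 CPM. Of the 8 pericyte log2 fold changes, 5 were negative with all libraries and 8 without D50A 3. The 8 meningeal fibroblast markers summed to 140 to 212 CPM across D50A, with D50A 1 highest, and 149 to 185 CPM in WT. Both ranges overlapped between the groups, none of these 16 markers was at 0 in any library, and their part in the Pdgfra and Cspg4 levels was not tested. Sums of the 8 astrocyte markers were 4417 to 4554 CPM across D50A, against 4642 to 4791 CPM across WT, without overlap. The markers did not share that direction: their median log2 fold change was 0.19, and 0.07 without D50A 3, with 2 of the 8 negative, and 3 without D50A 3. Slc1a2, a glutamate transporter gene named after its values were seen, held 760 to 2433 CPM across D50A, against 2638 to 2800 CPM across WT. Aldoc separated in the other direction, at 752 to 1339 CPM across D50A, against 627 to 708 CPM across WT. S100b had a log2 fold change of 1.19 ± 0.56 (SE; edgeR adjusted p = 0.84), and 0.53 ± 0.15 (SE) without D50A 3 (edgeR adjusted p = 0.27). Neuron markers summed to 5083 to 5514 CPM across D50A and 5406 to 5638 CPM across WT, and the ranges overlapped. For 2 of the 8, Map2 and Syt1, every D50A library lay below every WT library. Map2 held 722 to 1113 CPM across D50A, against 1198 to 1307 CPM across WT. Syt1 held 621 to 1106 CPM across D50A, against 1142 to 1210 CPM across WT. Microglia markers summed to 219 to 500 CPM across D50A, highest in D50A 3, and 247 to 255 CPM in WT. Endothelial markers summed to 199 to 280 CPM across D50A and 239 to 269 CPM across WT. edgeR called none of the markers in these lists with all 8 libraries or without D50A 3. Without D50A 1 and D50A 3 it called 3 astrocyte markers higher and 1 lower, 2 microglia markers lower and 1 neuron marker lower, and no pericyte, fibroblast or endothelial marker. In that comparison it called 4 of the 19 further precursor genes lower and 1, Megf11, higher. Of the 13 lectican and partner genes it called 3 lower, Cspg4 and Ncan among them. It called 2 of the 6 growth factor genes lower, Pdgfra among them. Of the 16 cell division genes it called 2 lower, Bub1b and Aurka. Of the 14 genes of newly formed oligodendrocytes it called 2 lower, Gpr17 and Itpr2, and 1 higher, Cnksr3. It called 2 of the 14 myelin genes higher, 1 of the 4 C1q-like genes, C1ql2, lower, and none of the 22 transcription factors or 4 sialidases. Over all tested genes 3.06% were called lower and 3.36% higher there. All 8 cerebellar genes were called higher there.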

How the data were processed

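The authors deposited read counts per gene, not normalized, for 25815 genes in 8 libraries of 13675945 to 24802272 counts. Per the submitters' processing notes, the tools named are CASAVA 1.8, STAR 2.5, HTSeq 0.6.1 and DESeq2 2, and the build is mm10. Neither the gene annotation nor strand handling is stated there. The counts were tested with edgeR 4.0.16 in R 4.3.3 (filterByExpr, TMM, quasi-likelihood, Benjamini-Hochberg adjustment over all tested genes, threshold 0.05; log2 CPM with a prior count of 2). Comparisons were D50A against WT with all libraries and without D50A 3. Alternatives were DESeq2 1.42.0, limma 3.58.1 (voom with sample quality weights), RLE or no scaling, other filters, a threshold of 0.1, each library left out, and D50A 1 and D50A 3 left out together. Genes were matched by ID to GENCODE M21, 25484 of 25815 in all. Members, lists and tests were chosen with earlier results of these data known. Besides the 10 genes, named genes came from the 2 of each list with the smallest unadjusted p over all 8 libraries. They also came from the 2 nearest in profile to a member, and not all of these genes are named. Others are said to be chosen later. Of the listed genes, Lhfpl3, Zfp24, 9630013A20Rik and Adgrb3 were not analysed here. The fits were tested on simulated data.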

Additional observations from a re-analysis of the deposited data

Results flagged for a closer look

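Each value here comes from the 5 D50A libraries, in which D50A 3 stood so far from the nearest other library that the gap took more than 0.71 of the whole range (Dixon's criterion). Of 26 gene values looked at, 6 met it, all through D50A 3; chance alone flags some such groups, about 5% of them. Pdgfra held 34.9 CPM in D50A 3 and 54.8 to 62.7 CPM in the others. Olig2 held 12.6 CPM in D50A 3 and 29 to 34.4 CPM in the others. Enpp6 was the highest there, at 27.3 CPM against 11.7 to 15.5 CPM. Sox6 held 11.9 CPM in D50A 3 and 23.3 to 25 CPM in the others. Nkx6-2 held 35 CPM there and 16.9 to 20.5 CPM in the others. Itpr2 held 15.2 CPM in D50A 3 and 24.6 to 27 CPM in the others. The criterion was not applied to the WT group of 3 libraries.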

How the results depend on the processing

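With all 8 libraries, edgeR's count of called genes was 0, and it was 37 with DESeq2, 517 with limma-voom and 1065 without D50A 1 and D50A 3 together; leaving out 1 library gave 0 to 26, the highest without D50A 1. The count among the 10 genes was 0, and it was 1 with limma-voom, 3 without D50A 1 and D50A 3, and 0 with any 1 library left out. Without D50A 3, the count of 0 genes became 150 with DESeq2, 509 with limma-voom, 85 with no filter and 1 at a threshold of 0.1, and 0 to 1065 with a further library left out, the highest without D50A 1; among the 10 it became 1 with DESeq2, 1 with limma-voom and 0 to 3 with a further library left out. Pdgfra was lower in D50A in every setting run, with log2 fold changes of -0.49 to -0.32, and of -0.35 to -0.29 without D50A 3. Signs turned for 5 of the 10 genes: Neu4, C1ql1, Sox10, Olig1 and Enpp6. With all 8 libraries, Neu4 was 0.0086 with DESeq2, 0.022 with RLE factors and -0.058 to 0.043 with 1 library left out; C1ql1 was -0.098 with limma-voom, -0.023 with no scaling, -0.087 without D50A 1 and D50A 3, and -0.038 to 0.079 with 1 left out; Sox10 was -0.39 to 0.0037 with 1 left out. Without D50A 3, Sox10 was -0.073 with limma-voom and -0.090 to 0.080 with 1 left out, Olig1 0.018 with no scaling and -0.080 to 0.044 with 1 left out, Enpp6 -0.036 to 0.17, Neu4 -0.10 to 0.030 and C1ql1 -0.096 to 0.016. The cause of these changes was not tested. No paired analysis was possible because the labels give no replicate numbers shared between groups. Depth limits the genes of low count most, with Cspg4 at 69 counts in D50A 3.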
